A study of Drosophila melanogaster with 30 samples.

Results

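The brains of group-housed males mutant for the odorant receptor Or47b were set beside those of group-housed males mutant for the odorant receptor Or67d. These were 6 of the 30 libraries of the series, 3 per genotype, and were taken by their labels. The Or47b males had the genotype w+/Y; Or47b2/3;+/+, which pairs different alleles of Or47b, and the Or67d males had the genotype w+/Y; +/+; Or67dGAL4/GAL4, in which both copies carry the GAL4 allele. Both are written GH for group housing, and the labels of both give w+ on the X chromosome. Each library was made from polyadenylated RNA of 30 pooled brains. The wild type Canton-S (CS) under group housing and the same mutants kept singly (SH) are used below for reference, with 3 libraries each. Ages are not given in the labels used here, and nothing in them states a shared genetic background, so the mutated receptor and any other difference between these lines cannot be told apart.

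In Drosophila melanogaster, Or47b and Or67d sit in separate classes of antennal sensory neurons that report pheromones to the brain. Or67d responds to the male pheromone cis-vaccenyl acetate, which reduces male courtship and promotes aggression, and Or47b responds to fatty acid pheromones of other flies and promotes male courtship. The axons of both classes end in the brain, while the cell bodies stay in the antenna, which was not part of the dissected tissue.

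The 6 libraries held 38.3 M to 56.4 M counts (M, 1000000). A gene's level is given as CPM, counts per M of scaled gene counts, without correction for gene length, so levels are compared between libraries and not between genes. Differences are log2 values of Or47b GH minus Or67d GH with their standard errors, and genes with an adjusted p under 0.05 in edgeR's quasi-likelihood test over all genes tested are said to be called. Replicate 3 of Or47b GH was the only one of the 6 libraries in the dissection batch that the deposited batch table names AC, and the fit carried a term for that batch. Transcripts of the mitochondrial genome took 6.71% to 8.36% of gene counts in the Or47b GH libraries and 2.51% to 5.41% in the Or67d GH libraries, with no overlap. Ribosomal RNA also differed: the gene 18SrRNA:CR45838 had 664, 875 and 325 CPM in Or47b GH and 5084, 10060.0 and 5226 CPM in Or67d GH. It also varied widely within groups, at 536, 231 and 5662 CPM in CS GH and 2223, 7111 and 770 CPM in Or67d SH. Its call was lost without replicate 3 of Or47b GH. Neuronal markers summed to at least 11900.0 CPM in every one of the 6 libraries, sarcomere genes to 264 to 363 CPM, and testis and accessory gland genes to 2.09 to 3.20 CPM with 5 of 13 at 0 throughout. An alternative fit carried the mitochondrial share as a covariate. As that share does not overlap between the genotypes in these 6 libraries, the fit cannot fully separate it from genotype. The part of the ribosomal difference in the results was not tested.

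Of 11269 genes tested, 1516 were called between the mutants (13.5%). 691 were higher in Or47b brains (6.13%) and 825 were lower (7.32%). The difference exceeded 2-fold for 533 of them, 238 higher and 295 lower, and was under 1.5-fold for 662. In 1315 of the called genes every library of one genotype lay above every library of the other, which was so for 26.4% of all genes tested. The count depended on single libraries: without replicate 3 of Or47b 942 genes were called, and without replicate 3 of Or67d 989. Without the batch term 911 were called, 491 higher and 420 lower, and 478 in a fit of these 6 libraries alone, 261 higher and 217 lower. With the mitochondrial share as a covariate 456 were higher and 636 lower. Within the batch named notAC, which leaves out replicate 3 of Or47b, 530 were higher and 618 lower, and no Or67d library was in the AC batch. In bulk tissue, fewer cells of a type and less RNA per cell cannot be told apart.

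**Figure D1:**
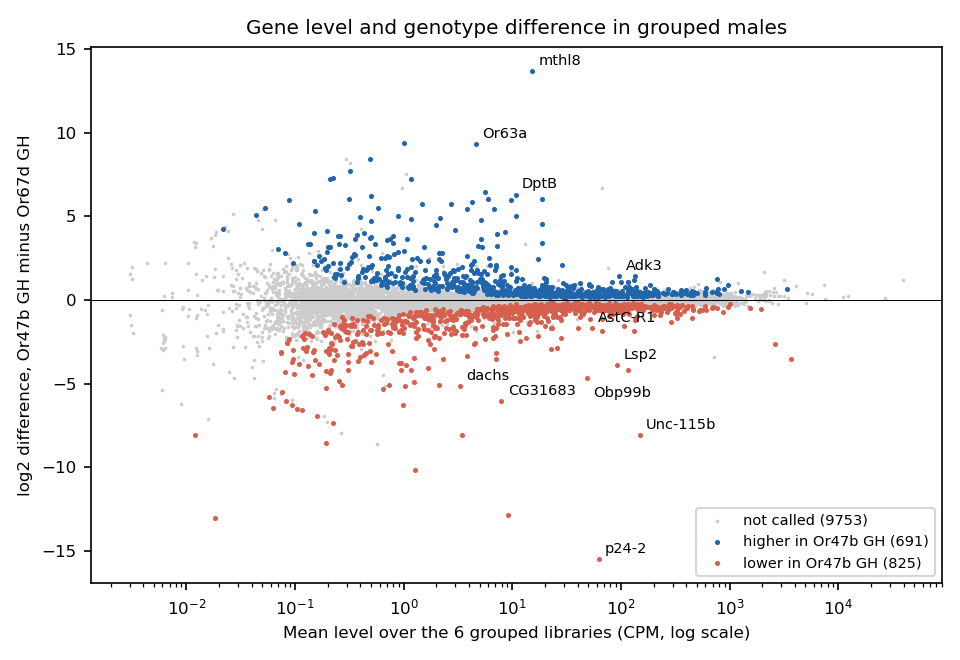
Mean level of each tested gene over the 6 grouped libraries (CPM, log scale) against its log2 difference, Or47b GH minus Or67d GH. Each point is a gene, blue and red points are the 691 higher and 825 lower genes, and mthl8 and p24-2 mark the ends of the range.

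The mutated receptors themselves are scarcely transcribed in the brain. Or67d (3L:10273204-10274624, build BDGP6) had 0.362, 0.377 and 0.524 CPM in the Or47b libraries and no count in any Or67d GH library. With the limit of 3 counts over a group that a count of 0 allows, Or67d was at least 22.2-fold higher in Or47b brains. Or47b (2R:11319710-11321312) had no count in any of the 6 libraries and was not tested, so brain RNA gave no check of that label. The white gene w, an ABC transporter of eye pigment precursors used as a transgene marker, had 9.29, 10.8 and 11.2 CPM in Or47b and 1.51, 1.89 and 1.87 CPM in Or67d libraries. The Or47b values overlapped the range of CS, 9.24 to 10.8 CPM, while every Or67d library lay far below, and the difference was 2.48 ± 0.22 (adjusted p = 1.35e-08). The gene overlaps kirre. The labels give w+ for both genotypes, and the cause of the lower w level in Or67d was not tested. The transcription factor genes fru and dsx, which set male circuits, were not called, with differences of 0.07 ± 0.12 and 0.01 ± 0.17.

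The sharpest contrasts were genes nearly silent in one genotype. Or63a, another odorant receptor gene (3L:2961534-2963788), had 9.91, 9.79 and 8.25 CPM in Or47b libraries and 2 counts in the 3 Or67d GH libraries together. Its ratio was 766, with a 95% exact counting interval of 212 to 6330, and CS had 9.09 to 10.1 CPM. mthl8, which encodes a methuselah-like G protein-coupled receptor (3L:22428-26308), had 36.7, 26.7 and 27.7 CPM in Or47b and no count in Or67d GH, and was at least 1662-fold higher. Both genes were thus present in Or47b and CS males and missing or nearly so from Or67d males. The same order held for CR18217, an annotated non-coding gene overlapping Apl, with 12.7, 11.3 and 9.21 against 0.0958, 0.131 and 0.159 CPM, a difference of 6.46 ± 0.18 (adjusted p = 8.05e-18). For CG7386 the values were 5.59, 5.51 and 4.87 against 0.115, 0.0561 and 0.123 CPM, a difference of 5.77 ± 0.23 (adjusted p = 8.03e-15). Mis12, a kinetochore component, was lower in Or67d but not silent, at 4.16, 4.58 and 5.45 CPM against 14.5, 17.8 and 18.5 CPM in Or47b, a difference of 1.80 ± 0.12 (adjusted p = 1.65e-10). These 5 genes were named by a rule that takes only called genes whose groups do not overlap, so their lack of overlap is not a result.

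The reverse case was p24-2, a cargo receptor gene of the p24 family (3R:9687402-9692794). It had 143, 129.6 and 101 CPM in Or67d GH and no count in any Or47b GH or CS GH library, so it was at least 6046-fold higher in Or67d brains. Unc-115b, an actin-binding LIM protein gene that overlaps p24-2, had 1.01, 0.3396 and 1.57 CPM in Or47b and 336, 294 and 262 CPM in Or67d, a difference of -8.08 ± 0.74 (adjusted p = 4.07e-08). In Or47b and CS males p24-2 was thus not detected and Unc-115b was near 0, while both had high counts in every Or67d library. Their close relatives nearby had smaller differences: eca was not called, at 0.18 ± 0.15, and Unc-115a differed by -0.61 ± 0.12 (adjusted p = 0.00139). Unc-115b, eca and Unc-115a were chosen after their values were seen, and reads shared between such copies, or between overlapping genes, cannot be assigned with certainty.

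Some leading genes lay away from CS in the Or47b mutant instead. Adk3, an adenylate kinase gene (2R:7243024-7245776), had 149, 147 and 122 CPM in Or47b, 57.8, 52.3 and 54.02 CPM in Or67d and 49.1, 49.3 and 45.5 CPM in CS, and the mutants differed by 1.42 ± 0.07 (adjusted p = 2.49e-13). Septin5, a septin GTPase gene, had 13.4, 15.02 and 10.5 CPM in Or47b and 1.42, 1.38 and 1.57 CPM in Or67d, a difference of 3.25 ± 0.16 (adjusted p = 6.65e-13), and CS had 1.18 to 1.35 CPM. phr, the photolyase that repairs pyrimidine dimers, had 36.7, 38.7 and 27.1 against 3.07, 4.49 and 2.696 CPM, a difference of 3.38 ± 0.23 (adjusted p = 2.55e-10), with 5.44 to 6.49 CPM in CS. For these 3 genes, all on chromosome arm 2R, the Or47b libraries stood above both other groups. phr overlaps Prosalpha1.

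Genes on chromosome 2 that were low in Or47b males included CG31683 (0.253, 0.302 and 0.105 against 13.3, 14.5 and 19.2 CPM). They also included dachs (0.181, 0.245 and 0.105 against 7.21, 5.74 and 6.31 CPM). CG4839 had no count in Or47b GH and 2.15, 3.18 and 2.33 CPM in Or67d GH. dachs, an atypical myosin of the Fat growth control pathway, differed by -5.13 ± 0.35 (adjusted p = 2.05e-10), and CG31683 by -6.03 ± 0.40 (adjusted p = 1.29e-10). CG4839 was at least 124.5-fold higher in Or67d, and the CS levels of CG31683, dachs and CG4839 were 17.9 to 21.9, 8.82 to 11.2 and 2.86 to 4.195 CPM, far above those of Or47b for all 3. dachs contains CheA29a, CG31683 overlaps CG31688 and CG4839 overlaps CG44153. Acsf2, an acyl-CoA synthetase gene, was also lower in Or47b, at 7.23, 7.999 and 8.77 against 19.6, 19.5 and 22.8 CPM, a difference of -1.46 ± 0.10 (adjusted p = 4.65e-10). CG9270 on 2L went another way. It had 0.723, 0.736 and 0.550 CPM in Or47b and 7.42, 6.90 and 6.63 CPM in Or67d. CS was as low as Or47b for CG9270, at 0.455 to 0.603 CPM.

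On chromosome 3, several genes were high in Or67d alone. AstC-R1, the receptor of the inhibitory peptide allatostatin C, had 27.7, 24.9 and 22.1 CPM in Or47b, 87.2, 82.7 and 80.3 CPM in Or67d and 29.6, 25.3 and 22.1 CPM in CS. The Or47b and CS libraries overlapped, every Or67d library was far above both, and the mutants differed by -1.69 ± 0.09 (adjusted p = 3.50e-12). Bmcp, a carrier of the inner mitochondrial membrane, had 17.3, 16.9 and 16.8 against 38.9, 38.2 and 40.6 CPM, a difference of -1.19 ± 0.08 (adjusted p = 9.94e-11). LanA, the laminin alpha chain of basement membranes, had 10.1, 7.98 and 18.98 against 41.2, 46.2 and 45.6 CPM, a difference of -2.26 ± 0.16 (adjusted p = 2.55e-10). Within Or47b, replicate 3 had the highest LanA level, still below every Or67d library. Ada2a, a subunit of histone acetyltransferase complexes, lay on either side of CS, at 13.6, 13.2 and 10.4 CPM in Or47b, 31.4, 30.1 and 28.8 CPM in Or67d and 20.2 to 26.1 CPM in CS, and the mutants differed by -1.22 ± 0.10 (adjusted p = 9.50e-09). It overlaps Polr2D.

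The share of genes called varied with chromosome arm. Between the mutants it was 13.0% on 2L, 14.6% on 2R, 16.1% on 3L, 15.1% on 3R, 10.8% on chromosome 4 and 6.98% on X. Against CS, Or47b GH had 6.66% and 8.29% of genes called on 2L and 2R, and 1.37% and 1.77% on 3L and 3R. Or67d GH had 7.36% and 7.94% on 2L and 2R, and 14.4% and 13.4% on 3L and 3R. Or47b lies on 2R and Or67d on 3L, and each mutant's highest shares were on the chromosome of its mutated receptor. These comparisons share the CS libraries, and each shares libraries with the comparison of the mutants. Over all genes, Or47b GH had 427 genes called against CS (3.79%), 194 higher (1.72%) and 233 lower (2.07%). Or67d GH had 1101 (9.77%), 578 higher (5.13%) and 523 lower (4.64%).

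**Figure D2:**
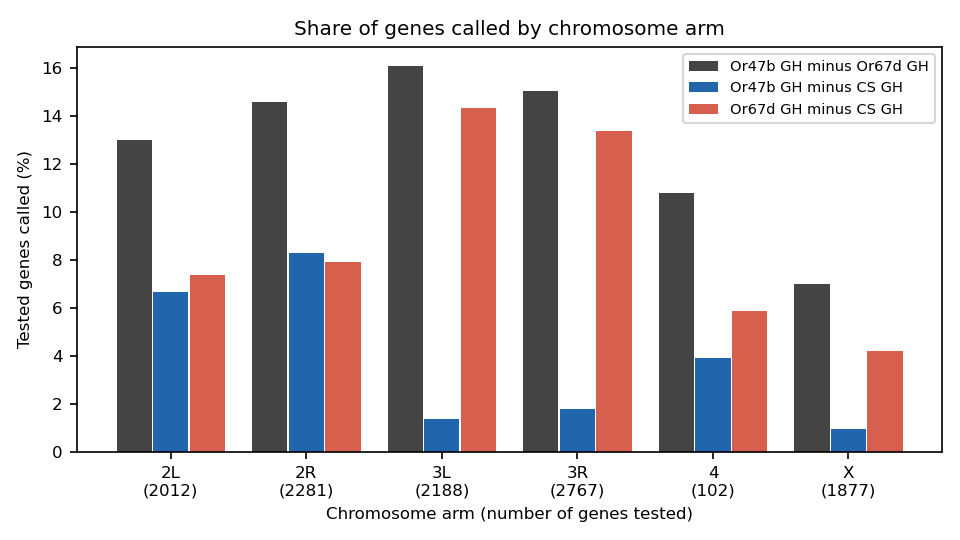
Share of tested genes called (%) on each chromosome arm, with the number of genes tested on the arm in parentheses. Bars give Or47b GH minus Or67d GH, Or47b GH minus CS GH and Or67d GH minus CS GH; the share for Or47b against CS falls from 8.29% on 2R to 1.37% on 3L.

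The share called was also taken around each mutated receptor. Within 0.5 Mb of Or47b, 15 of 82 genes tested were called (18.3%), and within 2 Mb 60 of 463 (13.0%). Within 0.5 Mb of Or67d, 8 of 64 were called (12.5%), and within 2 Mb 62 of 416 (14.9%). These counts include the mutated gene Or67d itself, which was called, while Or47b was not tested and is not in its own window. These shares stand beside 13.5% over all genes. Among the genes called near Or67d was Ilp3, described below, and near Or47b the taste receptor gene Gr47b was higher in Or47b males, at 0.615, 0.415 and 0.8901 against 0.0575, 0.112 and 0.0705 CPM, a difference of 2.70 ± 0.73 (adjusted p = 0.0148). The Gr47b call was lost without replicate 1 or replicate 3 of Or67d. Among genes called, 54.9% had another called gene within 10 kb, against 43.5% of the genes not called.

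Of the 34 gene lists, antimicrobial peptides had the largest median difference. Flies answer bacteria and fungi through the Imd and Toll pathways, which switch on secreted antimicrobial peptides, in the fat body above all. Of 13 Imd-type antimicrobial peptide genes tested, 12 were higher in Or47b brains and none was lower. Over all genes 6.13% were higher and 7.32% lower. The list's median log2 difference was 5.43, against -0.01 over all genes. The summed level of the list was 64.2 to 306.3 CPM in Or47b GH, 2.21 to 3.62 CPM in Or67d GH and 58.5 to 103.3 CPM in CS GH. Within the notAC batch 10 of 12 tested were higher. Under the alternative fits 9 to 12 genes of the list were called, always higher.

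The diptericin genes DptA and DptB show the pattern. DptB had 15.5, 7.91 and 40.5 CPM in Or47b and 0.307, 0.0187 and 0.229 CPM in Or67d, a difference of 6.30 ± 0.99 (adjusted p = 9.20e-05). DptA had 12.7, 7.83 and 36.9 against 0.172, 0.206 and 0.2996 CPM, a difference of 5.99 ± 0.99 (adjusted p = 1.52e-04). For both, replicate 3 of Or47b, the AC library, was the highest. CS had 7.64 to 18.2 CPM of DptA and 6.72 to 10.5 CPM of DptB, ranges that overlap with those of Or47b. Every Or67d library was below both groups.

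Metchnikowin, Mtk, an antifungal peptide, had 11.2, 7.92 and 20.8 against 0.172, 0.168 and 0.352 CPM, a difference of 5.43 ± 0.84 (adjusted p = 7.46e-05). Attacin C, AttC, had 31.1, 12.1 and 66.2 against 1.55, 0.954 and 0.7402 CPM, a difference of 4.52 ± 0.78 (adjusted p = 2.52e-04). Drosocin, Dro, had 20.6, 15.4 and 75.5 against 0.287, 0.112 and 0.7402 CPM, a difference of 6.03 ± 1.08 (adjusted p = 4.02e-04). In each case the lowest Or47b library was above the highest Or67d library, and replicate 3 of Or47b was again the highest. The cecropin gene CecA2 had 1.899, 0.604 and 3.48 CPM in Or47b and no count in Or67d GH, which puts it at least 99.7-fold higher. The member not called was the defensin gene Def, with 0, 0 and 0.393 CPM in Or47b and 0, 0.0561 and 0 CPM in Or67d. CecA1 and CecC lost their calls under some of the alternatives, among them, for both, the fit with the mitochondrial share and the fit without replicate 2 of Or67d. Within the diptericins, attacins and cecropins the genes are related copies, so reads may be split between them.

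Bomanins and other Toll effectors went the same way with smaller differences. Of 20 tested, 9 were higher in Or47b and none was lower, beside 6.13% higher and 7.32% lower over all genes. The list's median was 1.17. Drosomycin, Drs, the classical Toll read-out, had 8.14, 11.8 and 44.4 against 0.211, 0.393 and 0.546 CPM, a difference of 5.002 ± 0.91 (adjusted p = 4.74e-04). SPH93, a serine protease homologue, had 9.11, 6.301 and 9.92 against 0.0383, 0.318 and 0.0352 CPM, a difference of 5.89 ± 1.08 (adjusted p = 5.03e-04). The bomanin BomBc3 had 4.94, 7.21 and 10.9 against 1.65, 2.77 and 1.53 CPM, a difference of 1.64 ± 0.33 (adjusted p = 0.00137). No Or47b library overlapped with an Or67d library for these genes, and the CS libraries ranged with the Or47b ones, from 10.1 to 15.97 CPM for Drs. Without replicate 2 of Or47b, or without replicate 3 of Or67d, 5 of the 20 were called.

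**Figure D3:**
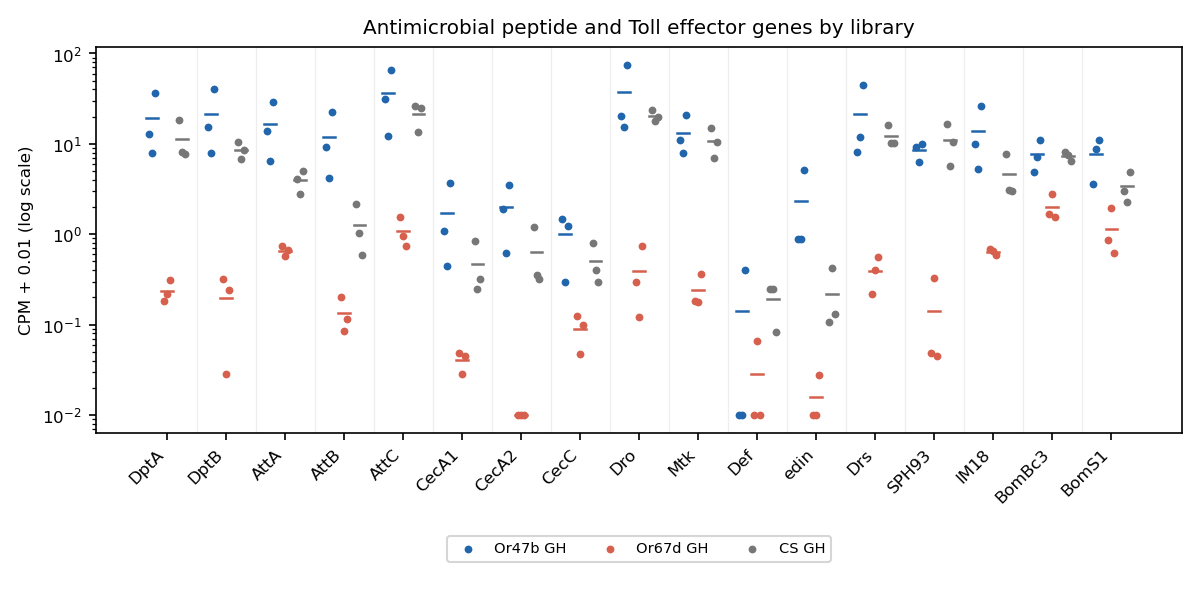
Level of 12 Imd-type antimicrobial peptide genes and 5 Toll effector genes in each grouped library (CPM + 0.01, log scale; points at 0.01 are libraries with no count). Points are libraries and lines are means of Or47b GH, Or67d GH and CS GH; for Mtk the Or67d points sit at 0.168 to 0.352 CPM, below all others.

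Of 31 recognition and signalling genes tested, 4 were higher and 2 lower, with a median of 0.14 and 22 of the 31 differences above 0. The called share over all genes was 6.13% higher and 7.32% lower. PGRP-SC2, an amidase that degrades peptidoglycan, had 1.47, 1.17 and 14.8 against 0.134, 0.112 and 0.229 CPM, a difference of 4.19 ± 0.88 (adjusted p = 0.00207). GNBP1, which acts upstream of Toll, had 6.33, 6.89 and 7.67 against 4.06, 3.39 and 3.75 CPM, a difference of 0.79 ± 0.15 (adjusted p = 7.99e-04). PGRP-LC, the membrane receptor of the Imd pathway, was lower in Or47b, at 6.26, 6.49 and 7.51 against 8.93, 10.6 and 11.9 CPM, a difference of -0.79 ± 0.14 (adjusted p = 4.22e-04). Its groups did not overlap, and neither did those of Myd88, the adaptor of Toll, which differed by -0.64 ± 0.11 (adjusted p = 3.40e-04). Both of these lower calls were lost without the batch term and in the fit of the 6 libraries alone. None of the 9 Turandot and JAK-STAT genes tested was called, with a median of 0.05.

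Against CS, the Imd-type peptides included 6 genes lower in Or67d GH and none called in Or47b GH. For the Toll effectors these numbers were 10 lower and none. Over all genes 4.64% were lower in Or67d GH than in CS GH. For Mtk, Or67d GH minus CS GH was -5.28 ± 0.83 (adjusted p = 1.27e-04) and Or47b GH minus CS GH was 0.16 ± 0.64 (adjusted p = 0.944).

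Called markers of the fat body, a tissue that surrounds the brain, were lower in Or47b. Of 19 fat body and yolk genes tested, 6 were lower and none higher, beside 7.32% lower and 6.13% higher over all genes. The list's median was -0.98, with 5 differences above 0 and 14 below. The storage protein gene Lsp2 had 16.6, 5.64 and 39.8 CPM in Or47b, 209, 186 and 101 CPM in Or67d and 17.6, 61.6 and 88.2 CPM in CS, a difference between the mutants of -3.90 ± 0.72 (adjusted p = 5.58e-04). Lsp1beta had 3.598, 3.302 and 7.93 against 17.3, 22.6 and 15.7 CPM, a difference of -2.44 ± 0.45 (adjusted p = 4.89e-04), and fit, a secreted satiety signal of the fat body, had 0.289, 0.302 and 1.62 against 3.62, 3.24 and 2.31 CPM, a difference of -2.93 ± 0.53 (adjusted p = 4.54e-04). Replicate 3 of Or47b was the highest Or47b library for all 3 genes. Without the batch term 1 gene of the list was called and the median was -0.28. In the fit of the 6 libraries alone 4 were called and the median was -0.27. The summed level of the list overlapped between the mutants, at 872 to 1650.0 CPM in Or47b and 1085 to 1503 CPM in Or67d. The called antimicrobial peptide genes were higher in Or47b, while 6 genes of the fat body list were lower and 13 were not called. The part of fat body left on the brains in these results was not tested.

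Of 12 haemocyte genes tested, 7 were lower in Or47b and none higher, beside 7.32% lower and 6.13% higher over all genes. The median was -0.58, with 2 differences above 0 and 10 below. The list's summed level was 841 to 969 CPM in Or47b and 1294 to 1550.0 CPM in Or67d. The collagen IV chains Col4a1 and vkg, which form basement membrane, led it. Col4a1 had 244, 242 and 232 against 343, 387 and 483 CPM, a difference of -0.86 ± 0.12 (adjusted p = 3.31e-05), and vkg differed by -0.83 ± 0.13 (adjusted p = 8.67e-05). The CS libraries reached from 194 to 305 CPM for Col4a1, and the Or67d libraries lay above all of them. NimC4, a receptor for engulfing dead cells, differed by -1.62 ± 0.30 (adjusted p = 5.32e-04). Without the batch term 3 of the 12 were called, without replicate 3 of Or47b 3, and without replicate 2 of Or47b 4. In the fit of the 6 libraries alone 2 were called.

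The counts of called markers of glia, neurons and muscle stand beside 13.5% called over all genes. Of 15 glial markers 2 were lower in Or47b, a share near that over all genes, namely Mdr65, a transporter of the blood-brain barrier, with a difference of -0.72 ± 0.11 (adjusted p = 6.82e-05), and repo, the glial transcription factor, with -0.46 ± 0.12 (adjusted p = 0.0106). The repo call was lost without replicate 3 of either genotype. Of 15 neuronal markers 1 was higher, nAChRalpha1, at 0.56 ± 0.16 (adjusted p = 0.0211), with a median of 0.25 for the list. The summed levels of the neuronal list were 15290.0 to 22210.0 CPM in Or47b and 11900.0 to 15720.0 CPM in Or67d. Of 23 sarcomere genes 3 were lower in Or47b, also near the share over all genes, with a median of -0.68. Without the batch term that median was -0.04 and in the fit of the 6 libraries alone -0.03, each with 1 gene called. Of 15 tested genes of the mitochondrial genome 1 was higher, mt:ATPase6, with a median of 0.97. The mt:ATPase6 call was lost on leaving out any 1 of the 6 libraries, without the batch term, in the notAC libraries, with the replicate block and with the mitochondrial share as a covariate. Of 54 dpr, DIP, beat and side genes, whose surface proteins match synaptic partners, 6 were higher and none lower. The clearest was dpr13, at 0.47 ± 0.11 (adjusted p = 0.0043). With the mitochondrial share as a covariate 1 of the 54 was called, as without replicate 3 of Or67d, without replicate 3 of Or47b 2 were called, and in the fit of the 6 libraries alone none.

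Among peptide signals, insulin-like peptide 3 stood out. Ilp3, a product of the insulin-producing cells of the brain (3L:9801298-9802120), had 3.58, 6.34 and 5.55 CPM in Or47b, 38.2, 38.01 and 46.0 CPM in Or67d and 12.4, 15.02 and 19.7 CPM in CS. The 3 groups did not overlap, with CS between the mutants, and the mutants differed by -2.92 ± 0.27 (adjusted p = 4.74e-08). Ilp3 overlaps CG32052 and lies within 0.5 Mb of Or67d. The insulin receptor InR was higher in Or47b, at 87.01, 85.8 and 129 against 59.7, 62.05 and 56.6 CPM, a difference of 0.67 ± 0.15 (adjusted p = 0.00415). That call was lost with the mitochondrial share as a covariate and in the fit of the 6 libraries alone. The other gene called among the 15 insulin, drosulfakinin and satiety genes was Ilp6, with a difference of -0.43 ± 0.12 (adjusted p = 0.0174). The Ilp6 call was lost under 6 of the alternatives, among them leaving out replicate 1 or 3 of Or47b. In this list of 15, 1 gene was higher and 2 lower, beside 6.13% higher and 7.32% lower over all genes.

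Of 36 other neuropeptide genes tested, 5 were higher and 3 lower in Or47b, beside 6.13% higher and 7.32% lower over all genes. With the mitochondrial share as a covariate 2 were higher and 4 lower, and without replicate 3 of Or67d 2 and 3. Mip, whose myoinhibitory peptides act on the sex peptide receptor, had 70.9, 80.7 and 76.9 against 122, 128 and 147 CPM, a difference of -0.82 ± 0.15 (adjusted p = 4.15e-04). AstA, which encodes allatostatin A, had 83.7, 88.2 and 74.1 against 134, 129 and 126 CPM, a difference of -0.63 ± 0.12 (adjusted p = 9.82e-04). Tk, the tachykinin gene, was higher in Or47b, at 194, 187 and 161 against 154, 143 and 132 CPM, a difference of 0.40 ± 0.09 (adjusted p = 0.00304). For Mip and AstA every Or67d library was above every Or47b and CS library, and for Tk every Or67d library was below them. Tk overlaps Ect3, and its call was lost without the batch term and in the fit of the 6 libraries alone.

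Among 33 neuropeptide receptor genes, 2 were higher and 3 lower in Or47b, near the 13.5% called over all genes. CNMaR, the receptor of CNMamide, had 46.2, 47.4 and 35.8 against 29.4, 28.9 and 27.4 CPM, a difference of 0.72 ± 0.11 (adjusted p = 5.02e-05). CrzR, the corazonin receptor, had 11.9, 13.0 and 10.8 against 17.6, 17.8 and 16.8 CPM, a difference of -0.53 ± 0.09 (adjusted p = 3.24e-04). AstC-R1, described above, had the largest difference of the called receptors named by the rule. Of 28 genes of octopamine, dopamine and serotonin 4 were higher and 1 lower, and the lower gene, the dopamine receptor Dop2R, varied widely within genotype, at 211, 177 and 105 against 364, 490.3 and 407 CPM, a difference of -1.29 ± 0.36 (adjusted p = 0.0182). Without replicate 3 of Or67d, and in the fit of the 6 libraries alone, none of the 28 was higher and 1 was lower. The Dop2R call was lost without replicate 2 or 3 of Or47b and without replicate 2 of Or67d.

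**Figure D4:**
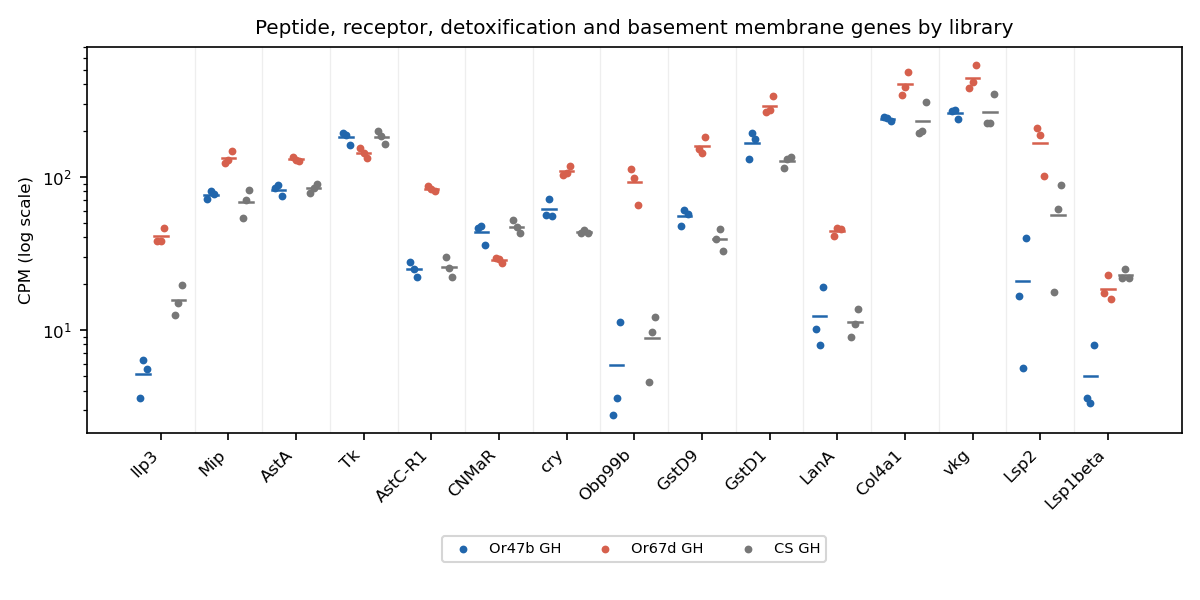
Level of 15 peptide, receptor, clock, odorant-binding, detoxification, basement membrane and storage protein genes in each grouped library (CPM, log scale). Points are libraries and lines are means of Or47b GH, Or67d GH and CS GH; Ilp3 shows 3 separate groups, and AstC-R1 shows Or67d alone above the others.

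The clock list held 3 lower genes of 13 and none higher, beside 7.32% lower and 6.13% higher over all genes. cry, the blue light receptor of clock neurons, had 56.4, 71.3 and 55.7 CPM in Or47b, 102, 105 and 118 CPM in Or67d and 42.5, 44.6 and 42.9 CPM in CS. CS was lowest, Or47b between, and the mutants differed by -0.85 ± 0.11 (adjusted p = 1.30e-05). cyc, the partner of Clk, differed by -0.31 ± 0.08 (adjusted p = 0.00742). The call of Clk itself, at -0.46 ± 0.15 (adjusted p = 0.0476), was lost under 11 of the alternatives, and its libraries overlapped. Dissection time of day is not given in the labels used here.

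Chemosensory genes were split. Of 180 odorant, gustatory and ionotropic receptor genes listed, 50 were tested, with 5 higher and 5 lower in Or47b, Or67d and Or63a among the higher. Over all genes 6.13% were higher and 7.32% lower. Ir76a had 18.7, 21.04 and 20.5 against 31.7, 29.7 and 28.4 CPM, a difference of -0.57 ± 0.10 (adjusted p = 3.02e-04). ppk29, a sodium channel subunit used in contact pheromone sensing, had 1.05, 0.962 and 2.02 against 4.75, 4.66 and 4.21 CPM, a difference of -1.94 ± 0.20 (adjusted p = 2.42e-07), and it overlaps sei. Of 29 odorant-binding and chemosensory protein genes tested, 3 were lower and none higher, beside 13.5% called over all genes. Obp99b led, with 2.77, 3.57 and 11.2 CPM in Or47b, 112, 98.4 and 65.6 CPM in Or67d and 4.52, 9.69 and 12.1 CPM in CS, a difference between the mutants of -4.65 ± 0.55 (adjusted p = 1.94e-06). The Or47b and CS libraries of Obp99b overlapped, and those of Or67d stood far above both.

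Enzymes of detoxification, which oxidise or conjugate foreign compounds, were called in both directions. Of 76 P450 genes tested 9 were higher and 13 lower, with a median of -0.30, beside 6.13% higher and 7.32% lower over all genes. Without the batch term 8 were higher and 5 lower, with a median of 0.02, and in the fit of the 6 libraries alone 3 were higher and 3 lower. Cyp12a5, a mitochondrial P450, had 4.39, 5.21 and 6.28 against 1.53, 1.63 and 1.99 CPM, a difference of 1.46 ± 0.14 (adjusted p = 5.54e-08). Cyp28d1 was lower in Or47b, at 183, 254 and 216 against 387, 440.3 and 508 CPM, a difference of -1.10 ± 0.14 (adjusted p = 7.73e-06). The Or67d libraries of Cyp12a5 lay below CS, at 6.28 to 8.63 CPM, while those of Cyp28d1 ranged with CS, at 407 to 448 CPM.

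Of 33 glutathione transferase genes 5 were lower and 1 higher, beside 7.32% lower and 6.13% higher over all genes. GstD9 had 47.6, 60.5 and 56.9 against 152, 143 and 183 CPM, a difference of -1.58 ± 0.18 (adjusted p = 1.00e-06). Its neighbour GstD1 had 129.5, 194 and 176 against 265, 271 and 336 CPM, a difference of -0.92 ± 0.16 (adjusted p = 3.12e-04), and GstD3 and GstD10 of the same cluster on 3R differed by -0.94 ± 0.12 (adjusted p = 6.33e-06) and -2.59 ± 0.49 (adjusted p = 6.90e-04). All 4 were higher in every Or67d library than in any Or47b or CS library, and as related copies they may share reads. Of 22 UDP-glycosyltransferase genes 2 were higher and 5 lower, and in the fit of the 6 libraries alone 1 and 1.

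Of 15 genes of the ecdysone response tested, 3 were higher in Or47b and none lower, with a median of 0.35. Over all genes 6.13% were higher and 7.32% lower. Hr4 had 6.51, 5.38 and 7.78 against 2.97, 3.29 and 2.26 CPM, a difference of 1.06 ± 0.15 (adjusted p = 3.45e-05). Eip78C had 108, 97.2 and 109.6 against 82.7, 75.9 and 63.7 CPM, a difference of 0.53 ± 0.09 (adjusted p = 2.72e-04), and Eip75B differed by 0.41 ± 0.11 (adjusted p = 0.00971). The Eip78C and Eip75B calls were lost in the fit of the 6 libraries alone, and that of Eip75B also with the mitochondrial share as a covariate and without replicate 3 of Or67d. Among 16 sex determination and dosage compensation genes, tra2, a splicing factor of the sex hierarchy, was higher in Or47b by 0.52 ± 0.08 (adjusted p = 5.55e-05). retn, an ARID transcription factor, was lower, at 1.23, 1.38 and 2.85 against 3.39, 4.53 and 3.79 CPM, a difference of -1.61 ± 0.21 (adjusted p = 6.83e-06), a call lost without the batch term and in the fit of the 6 libraries alone. Of 16 transposon defence genes 1 was higher and 2 lower, beside the same shares over all genes. The Piwi gene aub had 2.296, 3.00 and 2.04 against 5.58, 5.72 and 6.24 CPM, a difference of -1.21 ± 0.20 (adjusted p = 1.57e-04). Cytosolic ribosomal protein genes, with 1 of 84 called, nuclear genes of oxidative phosphorylation, with 2 of 70, and heat shock genes, with 1 of 27, had these few calls beside 13.5% over all genes.

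The same genotypes were compared in isolated males, whose 6 libraries are separate from the grouped ones but enter the same fit. There 1064 genes were called (9.44%), 539 higher in Or47b (4.78%) and 525 lower (4.66%). Of the 1516 genes called in grouped males, 811 were called in the same direction in isolated males, 398 higher and 413 lower. That is 53.5% of the grouped calls and 76.2% of the isolated calls, and 1497 of the 1516 had the same sign. 704 genes were called in grouped males without a call in isolated males. Their median absolute log2 difference in grouped males was 0.52, against 0.84 for the genes called in both.

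**Figure D5:**
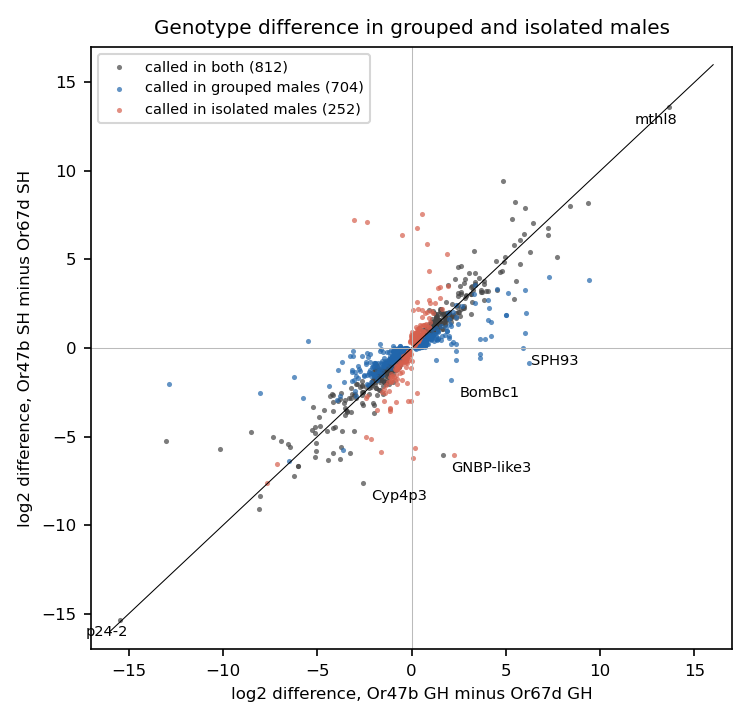
Log2 difference between the mutants in grouped males (x axis) against that in isolated males (y axis) for genes called in at least 1 housing. Each point is a gene and the line marks equality; mthl8 and p24-2 lie on the line at the ends and GNBP-like3 lies below it.

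The contrasts of mthl8 and p24-2 recurred in isolated males. mthl8 had 27.9, 33.7 and 26.4 CPM in Or47b SH and no count in Or67d SH, and p24-2 had no count in Or47b SH and 139.6, 107 and 103 CPM in Or67d SH. Some genes of the naming rule with no count in one grouped genotype were not called in isolated males. These were CecA2 (adjusted p = 0.164), CG31516 (adjusted p = 0.0543), 7SLRNA:CR32864 (adjusted p = 0.448) and the chitinase gene Cht9 (adjusted p = 0.197). Cht9 had only 4 counts over the Or67d GH libraries, its groups overlapped, and its grouped call was lost under 8 of the alternatives. The grouped call of 7SLRNA:CR32864 was lost under 6, among them leaving out any Or47b GH library. AstC-R1 differed by -1.78 ± 0.09 (adjusted p = 1.34e-12), LanA by -2.28 ± 0.16 (adjusted p = 2.77e-10), Ilp3 by -2.03 ± 0.26 (adjusted p = 6.18e-06) and GstD9 by -1.55 ± 0.18 (adjusted p = 1.52e-06). All 4 had the same direction as in grouped males, and none was called in the test of the difference between housings.

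The immune effectors recurred in part. In isolated males 5 of the 13 Imd-type peptides were higher in Or47b and none lower, with a median of 3.30. Over all genes 4.78% were higher and 4.66% lower in isolated males. The list summed to 21.5 to 32.8 CPM in Or47b SH and 1.40 to 2.62 CPM in Or67d SH. DptA had 4.78, 7.08 and 2.93 CPM in Or47b SH and 0.0213, 0.0483 and 0.0784 CPM in Or67d SH, a difference of 6.43 ± 1.23 (adjusted p = 8.85e-04). Of the 20 Toll effectors 1 was higher and 1 lower, near those shares over all genes, with a median of -0.31. SPH93 had 0.0513, 0.101 and 0.121 against 0.149, 0.0966 and 0.0196 CPM in isolated males, and Drs differed by 1.85 ± 1.28 (adjusted p = 0.422). Mip, at -0.24 ± 0.15 (adjusted p = 0.34), was not called in isolated males.

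The test of the difference itself, grouped minus isolated, called 1 gene of 11269 (0.00887%), while 325 had an unadjusted p under 0.05. DESeq2 called 8. A call in grouped males without a call in isolated males is therefore not shown to be a difference between housings for any gene other than the one called here. That gene was GNBP-like3, a homologue of glucan-binding recognition proteins. It had 2.097, 3.87 and 5.21 CPM in Or47b GH, 0.863, 1.25 and 0.828 CPM in Or67d GH, 0.0257, 0 and 0 CPM in Or47b SH and 0.915, 0.555 and 0.255 CPM in Or67d SH. Or47b was above Or67d in grouped males and below it in isolated males, with no overlap in either housing. Its call in grouped males alone was lost under 9 of the alternatives.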

How the data were processed

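Brains of male Drosophila melanogaster were dissected, 30 per library, and libraries of polyadenylated RNA were made with a kit that keeps strand and sequenced as paired-end reads, per the labels' protocols. The table the authors deposited holds estimated counts per feature, not scaled between libraries, of which 11.9% are not whole at a tolerance of 0. STAR, Salmon, DESeq2 and the build BDGP6 are named in the submitters' processing notes, without versions or settings, and whether counting used strand is not given in the sources used here. A further deposited table holds normalized signal values whose method is not stated, used only for an alternative test in limma 3.58.1 on log2(value + 1). The deposited batch table names each library AC or notAC, without a key.

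For 17895 genes the rounded counts entered edgeR 4.0.16 under R 4.3.3: filterByExpr left 11269 genes, scaling was by TMM, and 1 quasi-likelihood fit of all 30 libraries carried the 10 groups and the AC batch. P values were adjusted by Benjamini-Hochberg over all genes tested within a comparison. The 6383 other features, largely transposon insertions, took 0.60% to 1.21% of the counts of the 6 libraries and were tested only as an alternative. Symbols, positions and overlaps came from Ensembl release 115, which matched 17855 genes. Intervals and the floor of 3 counts over a group cover counting error only. The fit was checked on simulated counts.

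The members and the 34 gene lists were chosen with earlier results of these data known. The rule for naming took the mutated genes, w, fru and dsx; 15 genes per direction, by smallest adjusted p, among called genes whose libraries do not overlap; the 8 largest differences in each direction where one genotype averages under 0.1 CPM; up to 4 called genes per list; called genes within 0.5 Mb of either receptor; and 5 genes in each direction of the test between housings. Some of these stand only in the counts. Alternatives were DESeq2 1.42.0, another scaling, no filter, no batch term, other sample sets, a mitochondrial covariate, a replicate block and leaving out each library.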

Additional observations from a re-analysis of the deposited data

Results flagged for a closer look

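GNBP-like3 was the 1 gene for which the difference between Or47b and Or67d males differed between grouped and isolated males in a test of that difference. Its log2 difference was 1.64 in grouped males and -6.06 in isolated males, and grouped minus isolated gave 7.70 ± 1.15 (adjusted p = 0.0084, edgeR). The level in isolated Or47b males rested on 1 library with a count, at 0.0257 CPM, beside 2 libraries with none. The call was lost in the notAC libraries, in the fit of the groups compared alone, and without replicate 2 or replicate 3 of isolated Or47b males or replicate 1 of isolated Or67d males. The cause was not tested.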

How the results depend on the processing

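Counts of genes higher in grouped Or47b males were 261 in the fit of the groups compared alone, 456 with the mitochondrial share as a covariate and 238 over 2-fold, against 691. Counts of lower genes were 217 in the fit of the groups compared alone, 420 without the AC batch term and 295 over 2-fold, against 825. The smaller fit has fewer libraries for estimating the spread. Leaving out 1 of the 6 grouped libraries at a time gave 451 to 708 higher and 474 to 711 lower genes in grouped males, and leaving out 1 of the 6 isolated ones 658 to 797 higher and 785 to 917 lower. In isolated males the total was 778 to 1106 on leaving out any 1 of the 12. For isolated males 699 were called without the batch term, 336 in the smaller fit and 439 over 2-fold, against 1064. The test between housings called 0 genes in the notAC libraries and in the smaller fit, 8 with DESeq2, and 0 to 1 when 1 library was left out. Replicate numbers were not treated as pairing: same-numbered grouped libraries had correlations of their deviations of 0.05, -0.09 and -0.02, and a replicate block gave 655 higher and 795 lower genes. Of 155 called genes named by the rule, 70 lost the call under at least 1 alternative and 0 reversed. Depth limits genes under about 0.1 CPM, where a library's floor of 3 counts lies near that level. The causes were not tested.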

Other observations

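The deposited counts also hold features that are not genes, mainly transposon insertions, whose copies share reads. When 1468 of these passed the filter and were tested with the genes, 293 were called between grouped Or47b and Or67d males, 171 higher and 122 lower in Or47b. In the same fit 1488 of 11265 genes were called, 692 higher and 796 lower.

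Other genes with the smallest p in the test between housings did not pass its adjustment. Acsx3, an acyl-CoA synthetase homologue, had 44.8, 47.0 and 40.9 CPM in grouped Or47b males and 103, 80.5 and 90.7 CPM in isolated ones, while Or67d males had 29.7 to 45.3 CPM in grouped and 38.8 to 40.8 CPM in isolated libraries. Its grouped minus isolated value was -0.93 ± 0.21 (adjusted p = 0.69, edgeR). BomBc1, a bomanin, had 4.03 to 9.87 CPM in grouped and 0.0608 to 0.412 CPM in isolated Or47b males, beside 0.811 to 1.85 CPM and 0.338 to 0.808 CPM in Or67d males, with an adjusted p of 0.69.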
